A study of Mus musculus with 16 samples.

Results

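The panel counted the mRNA of 18 genes for leukocyte surface antigens with a CD number, which are described here as a readout of which cells were selected and how activated they were. They were taken as the genes of the table whose symbol is Cd followed by a digit, without *Cd1d1*, *Cd28*, *Cd40*, *Cd40lg*, *Cd74*, *Cd80*, *Cd86*, *Cd163*, *Cd244*, *Cd247* and *Cd274*. The rule named 29 genes by symbol, left out 11 of them and kept 18 of the 734 genes measured. All 18 were tested, since no filter on low values was applied. They are *Cd14*, *Cd151*, *Cd180*, *Cd1d2*, *Cd209e*, *Cd27*, *Cd276*, *Cd34*, *Cd36*, *Cd38*, *Cd44*, *Cd47*, *Cd68*, *Cd69*, *Cd70*, *Cd83*, *Cd84* and *Cd99*.

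A CD number names a molecule on the surface of leukocytes by the antibodies that bind it, so the genes share a naming scheme and not a function. Some mark a lineage, such as *Cd180* on B cells, *Cd27* on T cells, NK cells and some B cells, or *Cd14* and *Cd68* in monocytes and macrophages. Others, such as *Cd69* and *Cd83*, are switched on within hours when lymphocytes or antigen-presenting cells are stimulated. In the spleen, CD11b is carried by neutrophils, monocytes, macrophages, eosinophils, some dendritic cells, NK cells and a subset of B cells, so that a pool of CD11b+ cells can hold several of these lineages.

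RNA came from splenic CD11b+ cells of 16 wild-type C57BL/6 (B6) mice (C57BL/6J in the study's methods), 4 in each of 4 groups, and was counted with the nCounter Myeloid Innate Immunity panel, in which color-coded probes count mRNA molecules without amplification. Naive mice received no treatment. Each remaining mouse received 20000000 spleen cells of BALB/c mice, which differ from B6 at the MHC, alone (allo mice), with 150 μg of CTLA4-Ig i.p. on day 2 (CTLA4-Ig mice), or with the same CTLA4-Ig and 5000 U/kg of recombinant EPO i.p. daily (CTLA4-Ig/EPO mice). Spleens were taken on day 7. CTLA4-Ig binds CD80 and CD86 and so blocks CD28 costimulation, and EPO (erythropoietin) is the hormone that drives red cell production. EPO was tested only on top of CTLA4-Ig, so that no value given here is of EPO alone. Age and sex of the mice are not given in the sources used here. In the labels the injected cells are T cell depleted and the route is i.p., where the text of the study has i.v. and calls the selected cells CD11c- as well. The letter codes of the naive and allo groups are swapped in 1 protocol field relative to titles and treatments. Titles and treatments were followed here, and every comparison of naive with allo mice rests on them.

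The deposited values are log2 counts scaled by a single factor per mouse, and the counts recovered from them totaled 562760 to 912328 per mouse. The factor was 1.27 to 1.85 in naive mice and 0.56 to 0.79 in the other groups, and the 10 most abundant genes took 42.1% to 59.8% of the counts in naive mice and 30.3% to 37.8% in the others. Over all genes, the median of the log2 differences between allo and naive mice was -0.65 on the deposited scale and 0.08 once each mouse was centred on its median. Differences from naive mice are given on both scales. A difference is called where the Benjamini-Hochberg adjusted *P* value over all 734 genes in a limma fit of the 16 mice was below 0.05, and values after ± are SDs over the 4 mice of a group unless named otherwise.

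Across the 4 groups, 15 of the 18 CD-numbered genes differed in limma's moderated F-test, where the share among all genes was 85.3%. The exceptions were *Cd34*, *Cd36* and *Cd209e*. Allo mice differed from naive mice in 14 of the 18, of which 6 were higher and 8 lower. Among all genes 11.9% were higher and 58.4% lower on that scale. In 13 of the 18 the values of the 4 naive and 4 allo mice did not overlap, as in 61.2% of all genes. Centred on medians, 6 were higher and 4 lower, beside 33% and 26.7% of all genes. CTLA4-Ig changed 0 of the 18 at the adjusted threshold, as it did 0% of all genes. EPO on top of CTLA4-Ig changed 6 of the 18, with *Cd68* and *Cd151* higher and *Cd69*, *Cd83*, *Cd180* and *Cd27* lower, beside 22.8% of all genes higher and 28.3% lower. The same 2 were higher and the same 4 lower after centring, where the shares of all genes were 17.2% and 37.6%. The median log2 difference with EPO was -0.04 over the 18 and -0.07 over all genes, and that between allo and naive mice was -0.38 and -0.65, and 0.35 and 0.08 after centring.

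**Figure D1:**
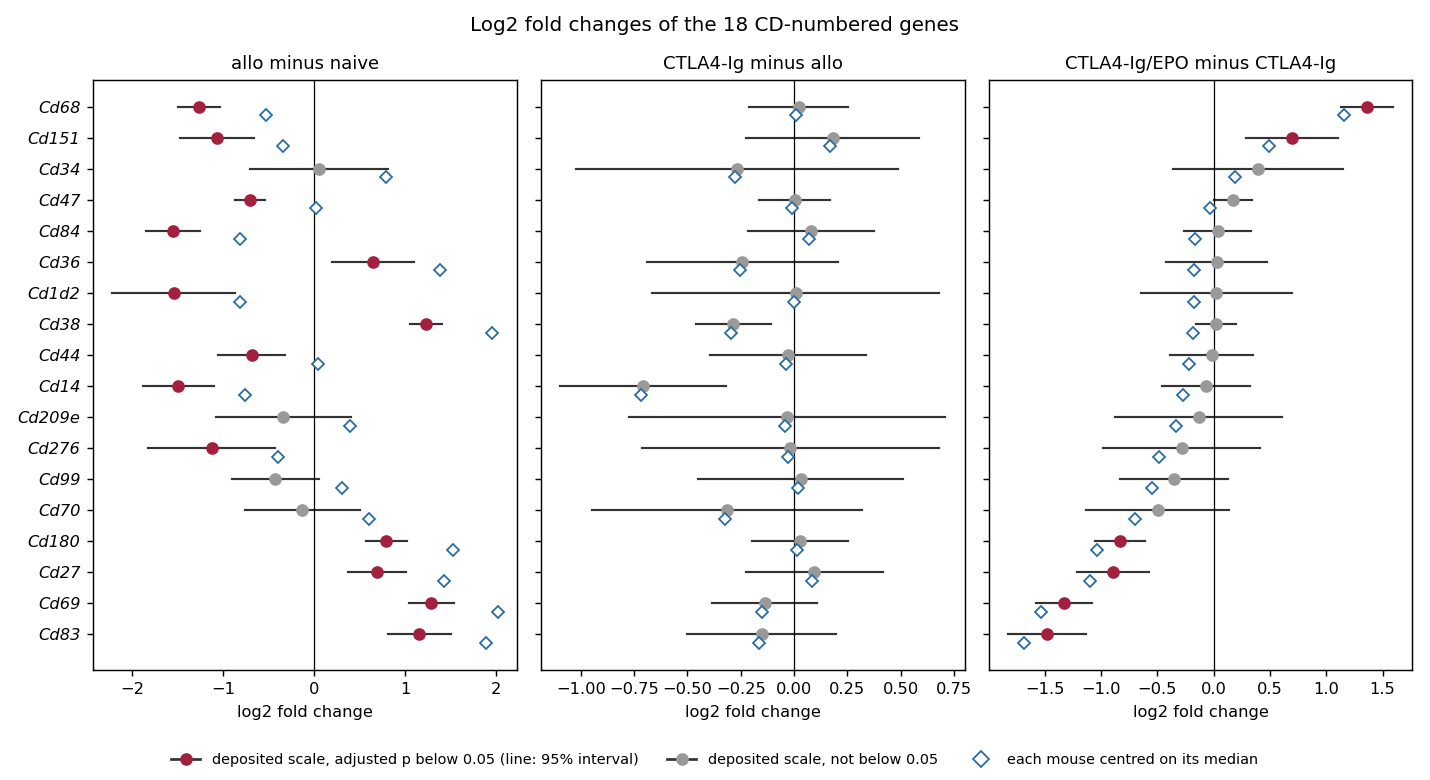
Log2 fold changes of the 18 CD-numbered genes in the 3 comparisons, 4 mice per group. Circles are limma estimates on the deposited scale with 95% intervals, red where the adjusted p was below 0.05, and open diamonds are estimates after centring each mouse on its median. The diamonds lie to the right of the circles in allo minus naive, and the 6 genes called with EPO keep their sign on both scales.

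All 6 genes that changed with EPO had changed the opposite way between naive and allo mice, a comparison that uses other mice. *Cd69*, *Cd83*, *Cd180* and *Cd27* were higher in allo than in naive mice and lower with EPO, a sequence shown by 61 of the 734 genes (8.31%). These are 61 of the 208 genes that were lower with EPO. *Cd68* and *Cd151* were lower in allo than in naive mice and higher with EPO, as were 133 genes (18.1%). For *Cd151* the first step was not called after centring. Of the 18, 0 were higher at both steps, as were 0.954% of all genes, and 0 were lower at both steps, as were 10.1%. The CTLA4-Ig and CTLA4-Ig/EPO mice did not overlap in 6 of the 18, which were these 6 genes, beside 48.8% of all genes.

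**Figure D2:**
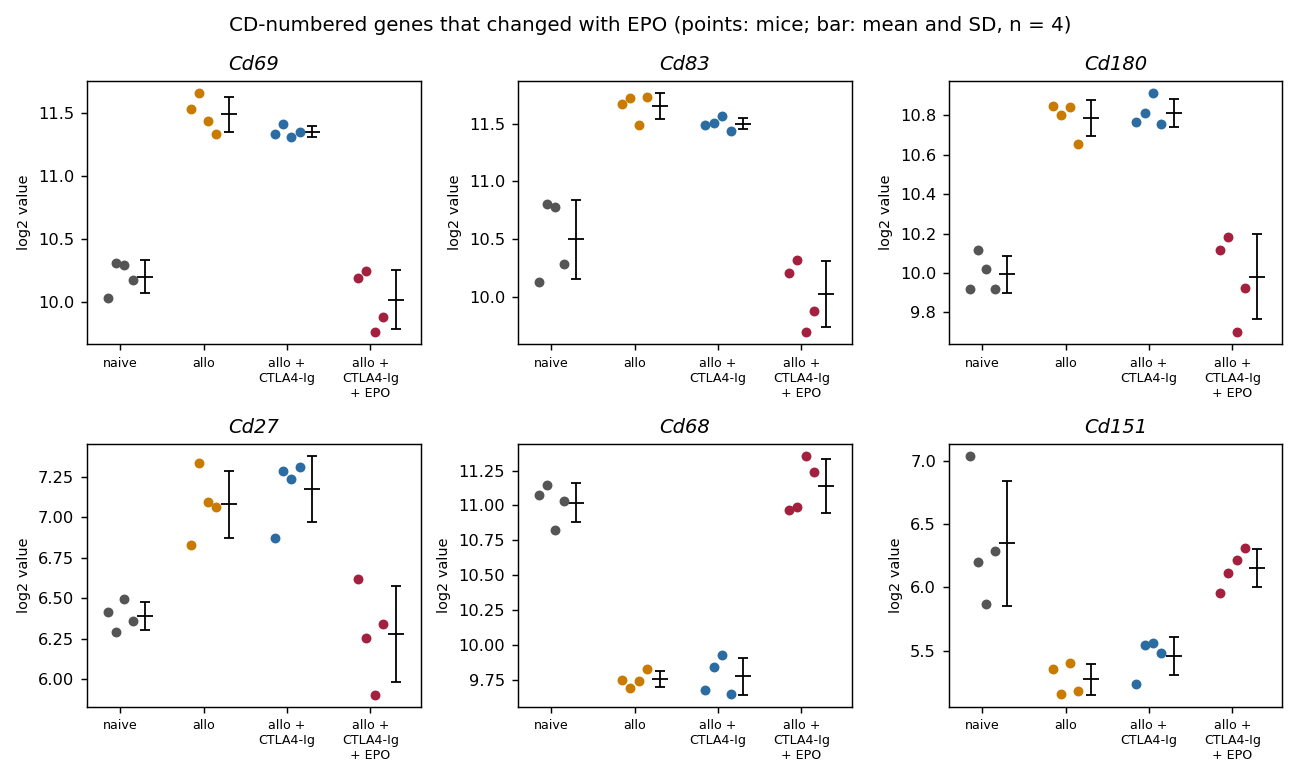
Deposited log2 values of the 6 CD-numbered genes that changed with EPO, by group. Points are mice and the bars give mean and SD of 4 mice. In each panel the CTLA4-Ig/EPO mice are apart from the allo and CTLA4-Ig mice and overlap with the naive mice on this scale.

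*Cd69* encodes a lectin-like receptor that appears early on activated lymphocytes and many myeloid cells and holds them in the tissue. Its log2 values were 10.03, 10.31, 10.29 and 10.17 in naive mice, 11.53, 11.66, 11.43 and 11.33 in allo mice, 11.33, 11.41, 11.31 and 11.35 in CTLA4-Ig mice, and 10.19, 10.24, 9.76 and 9.88 in CTLA4-Ig/EPO mice. The allo and CTLA4-Ig mice were high and the naive and CTLA4-Ig/EPO mice low, with no overlap between the 2 sets. The difference with EPO was -1.33 ± 0.12 (SE) on the log2 scale (adjusted *P* = 2.55e-07, limma), and the difference between allo and naive mice was 1.29 ± 0.12 (SE, adjusted *P* = 1.53e-07). Both were called after centring as well, at -1.53 and 2.02.

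*Cd83* marks activated dendritic cells and activated B cells and stabilizes MHC class II and CD86 on their surface. The naive mice had 10.13, 10.80, 10.78 and 10.28, the allo mice 11.67, 11.73, 11.49 and 11.73, the CTLA4-Ig mice 11.49, 11.51, 11.56 and 11.44, and the CTLA4-Ig/EPO mice 10.20, 10.32, 9.69 and 9.88. Of the 18 genes this was the one that fell furthest with EPO, by 1.48 ± 0.16 (SE) on the log2 scale (adjusted *P* = 2.63e-06, limma). The naive mice spread over more than the other groups, with an SD of 0.34, and their values overlapped those of the CTLA4-Ig/EPO mice. Between allo and naive mice the log2 difference was 1.16 ± 0.16 (SE, adjusted *P* = 1.77e-05), and 1.89 after centring. Recovered counts of *Cd83* were 604 to 1410 per mouse in naive mice and 1471 to 1675 with EPO. They were 3687 to 5418 in the other groups.

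*Cd180* (RP105) encodes a relative of the Toll-like receptors that restrains TLR4 in myeloid cells and is most abundant on B cells. It was 9.92, 10.11, 10.02 and 9.92 in naive mice, 10.85, 10.80, 10.84 and 10.65 in allo mice, 10.77, 10.81, 10.91 and 10.76 in CTLA4-Ig mice, and 10.12, 10.18, 9.70 and 9.92 in CTLA4-Ig/EPO mice. The groups fell into a high pair (allo and CTLA4-Ig) and a low pair (naive and CTLA4-Ig/EPO) with no overlap. With EPO the log2 difference was -0.83 ± 0.11 (SE, adjusted *P* = 1.05e-05, limma), and allo mice exceeded naive mice by 0.79 ± 0.11 (SE, adjusted *P* = 9.74e-06). The centred differences were -1.03 and 1.53.

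*Cd27* encodes a costimulatory receptor of the TNF receptor family found on T cells, NK cells and some B cells, and *Cd70* encodes its ligand. *Cd27* was 6.41, 6.29, 6.49 and 6.36 in naive mice, 6.83, 7.34, 7.09 and 7.06 in allo mice, 6.87, 7.28, 7.24 and 7.31 in CTLA4-Ig mice, and 6.62, 6.25, 5.91 and 6.34 in CTLA4-Ig/EPO mice. Every mouse of the allo and CTLA4-Ig groups was above every naive and CTLA4-Ig/EPO mouse. *Cd27* fell by 0.89 ± 0.15 (SE) on the log2 scale with EPO (adjusted *P* = 1.54e-04, limma). It was 0.69 ± 0.15 (SE) higher in allo than in naive mice (adjusted *P* = 9.09e-04), and 1.42 higher after centring.

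*Cd70* was the member with the fewest molecules, at 4 to 14 recovered counts per mouse. Its mean log2 values were 2.95 ± 0.22 in naive, 2.82 ± 0.49 in allo, 2.51 ± 0.60 in CTLA4-Ig and 2.01 ± 0.38 in CTLA4-Ig/EPO mice. None of the 3 steps (allo, CTLA4-Ig, EPO) was called, and with EPO the log2 difference was -0.50, with a 95% interval of -1.13 to 0.14. After centring it was -0.70, with an interval of -1.35 to -0.047 and an adjusted *P* value of 0.065 in limma. On the deposited scale and without CTLA4-Ig mouse 1 it was -0.73 (adjusted *P* = 0.046, limma). Negative-control probes were not used here, so it is unknown whether counts this low are above the background of the assay, which holds also for *Cd209e*, *Cd1d2* and *Cd276*.

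*Cd68* encodes a heavily glycosylated protein of late endosomes and lysosomes that is abundant in macrophages and reaches the surface only in part. Its log2 values were 11.08, 11.15, 10.83 and 11.03 in naive mice, 9.75, 9.69, 9.75 and 9.83 in allo mice, 9.68, 9.84, 9.93 and 9.65 in CTLA4-Ig mice, and 10.97, 10.99, 11.36 and 11.24 in CTLA4-Ig/EPO mice. The order was the reverse of that of *Cd69*, with naive and CTLA4-Ig/EPO mice high and the other groups low. *Cd68* rose with EPO by 1.36 ± 0.11 (SE) on the log2 scale (adjusted *P* = 9.86e-08, limma), and the log2 difference between allo and naive mice was -1.27 ± 0.11 (SE, adjusted *P* = 9.60e-08). After centring these differences were 1.16 and -0.53, both called. In counts, *Cd68* was at 1088 to 1794 molecules in naive mice and 1091 to 1650 in allo and CTLA4-Ig mice. CTLA4-Ig/EPO mice had 2670 to 4679. These counts are not scaled to the total of a mouse. In limma-voom on the recovered counts, the log2 difference between allo and naive mice was -0.61 and was called.

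*Cd151*, a tetraspanin that binds laminin-binding integrins at the cell surface, was the other gene that rose with EPO. It was 7.04, 6.20, 5.87 and 6.28 in naive mice, 5.35, 5.16, 5.40 and 5.19 in allo mice, 5.23, 5.54, 5.56 and 5.48 in CTLA4-Ig mice, and 5.96, 6.12, 6.22 and 6.31 in CTLA4-Ig/EPO mice. The CTLA4-Ig/EPO mice were above all mice of the allo and CTLA4-Ig groups, and naive mouse 1 was above the rest. The log2 difference with EPO was 0.70 ± 0.19 (SE, adjusted *P* = 0.0068, limma). It was 0.49 after centring (adjusted *P* = 0.035), and 0.34 after quantile normalization, where it was no longer called (adjusted *P* = 0.17). The log2 difference between allo and naive mice of -1.07 (adjusted *P* = 1.55e-04) shrank to -0.34 after centring and was not called there. With 35 to 133 recovered counts per mouse, *Cd151* had the lowest counts of the 6 genes.

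The DNA before the start sites of the genes that changed with EPO is shown for those with an entry in the RefSeq promoter table of GRCm38.p6, since these genes moved at both steps. Windows were found for 12 of the 18 genes, among them *Cd68*, *Cd151*, *Cd180* and *Cd27*. Each sequence is the 250 bases before the first start site listed, 5′ to 3′ on the strand of the gene, in lower case. Capitals mark matches on either strand to 3 short motifs, GAGGAA (a core bound by PU.1 and other Ets factors), TGANTCA (AP-1) and the NF-kB motif GGG, any 2 bases, TTTCC. The windows are *Cd68* at chr11:69666171-69666420 (minus strand), *Cd151* at chr7:141467112-141467361 (plus strand), *Cd180* at chr13:102693297-102693546 (plus strand) and *Cd27* at chr6:125237028-125237277 (minus strand).
Cd68: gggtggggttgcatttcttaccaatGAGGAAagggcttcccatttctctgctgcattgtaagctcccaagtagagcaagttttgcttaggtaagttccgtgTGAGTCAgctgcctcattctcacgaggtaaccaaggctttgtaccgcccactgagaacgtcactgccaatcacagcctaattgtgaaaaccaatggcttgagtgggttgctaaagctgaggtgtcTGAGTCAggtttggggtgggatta
Cd151: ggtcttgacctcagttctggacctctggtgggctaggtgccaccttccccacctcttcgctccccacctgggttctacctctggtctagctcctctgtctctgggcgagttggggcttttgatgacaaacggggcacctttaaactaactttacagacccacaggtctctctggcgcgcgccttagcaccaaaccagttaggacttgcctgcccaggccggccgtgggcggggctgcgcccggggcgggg
Cd180: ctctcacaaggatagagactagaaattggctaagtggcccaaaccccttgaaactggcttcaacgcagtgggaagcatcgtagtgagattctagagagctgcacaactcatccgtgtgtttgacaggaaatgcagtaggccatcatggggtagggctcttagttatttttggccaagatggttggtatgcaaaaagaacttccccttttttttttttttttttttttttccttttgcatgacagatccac
Cd27: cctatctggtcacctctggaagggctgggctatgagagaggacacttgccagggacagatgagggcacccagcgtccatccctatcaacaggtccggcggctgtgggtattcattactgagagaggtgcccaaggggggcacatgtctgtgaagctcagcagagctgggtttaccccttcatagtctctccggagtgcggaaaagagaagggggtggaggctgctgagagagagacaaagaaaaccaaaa

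The *Cd68* window held 3 matches, which do not overlap each other. They are GAGGAA at base -225 from the start site and TGAGTCA at -149 and -24. *Cd151*, *Cd180* and *Cd27* had 0 matches in the windows shown and 0 in the second window listed for *Cd151* and for *Cd180*. Of all 32851 windows of this length, 23.3% held GAGGAA, 6.75% TGANTCA and 1.41% the NF-kB motif. Among the 12 members with a window, the other matches were to GAGGAA on the opposite strand, 2 before *Cd44* and 1 before *Cd276*, and TGAGTCA before *Cd84*. A match to letters is not evidence of binding, and its absence from a window says nothing about the factor.

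*Cd14* and *Cd36* were listed with *Cd68* as receptors of monocytes and macrophages and were not called with EPO. *Cd14*, the coreceptor that hands lipopolysaccharide to TLR4, was 10.89, 10.37, 10.19 and 10.63 in naive mice, 9.27, 8.96, 8.61 and 9.28 in allo mice, 8.43, 8.33, 7.95 and 8.56 in CTLA4-Ig mice, and 8.10, 8.32, 8.37 and 8.22 in CTLA4-Ig/EPO mice. Naive mice were highest, allo mice were next, and the CTLA4-Ig and CTLA4-Ig/EPO mice overlapped at the lowest level. Allo mice were below naive mice by a log2 difference of -1.49 ± 0.18 (SE, adjusted *P* = 4.08e-06, limma), and -0.76 after centring. All 4 CTLA4-Ig mice were below all 4 allo mice, with a log2 difference of -0.71 ± 0.18 (SE) and an unadjusted *P* value of 0.0016, which did not pass the adjusted threshold (adjusted *P* value 0.25). Adding EPO gave -0.07, with a 95% interval of -0.46 to 0.32.

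*Cd36*, a scavenger receptor for oxidized lipoproteins, long-chain fatty acids and dying cells, had mean log2 values of 8.86 ± 0.34 in naive, 9.51 ± 0.19 in allo, 9.27 ± 0.36 in CTLA4-Ig and 9.29 ± 0.31 in CTLA4-Ig/EPO mice. It was higher in allo than in naive mice by 0.65 ± 0.21 (SE, adjusted *P* = 0.013, limma), and by 1.38 after centring. The log2 difference with EPO was 0.03, with a 95% interval of -0.42 to 0.48. Within a mouse the factor cancels in the difference between 2 genes. The log2 value of *Cd68* minus that of *Cd14* was 0.50 ± 0.26 in naive, 0.73 ± 0.30 in allo, 1.46 ± 0.39 in CTLA4-Ig and 2.89 ± 0.16 in CTLA4-Ig/EPO mice, with 2.68 to 3.02 in the last and at most 1.97 elsewhere. *Cd68* minus *Cd36* was 0.51 ± 0.35 in CTLA4-Ig and 1.85 ± 0.44 in CTLA4-Ig/EPO mice, and 2.16 ± 0.41 in naive mice. These differences were given no test. The separation of *Cd68* from both receptors with EPO thus holds for any factor per mouse.

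**Figure D3:**
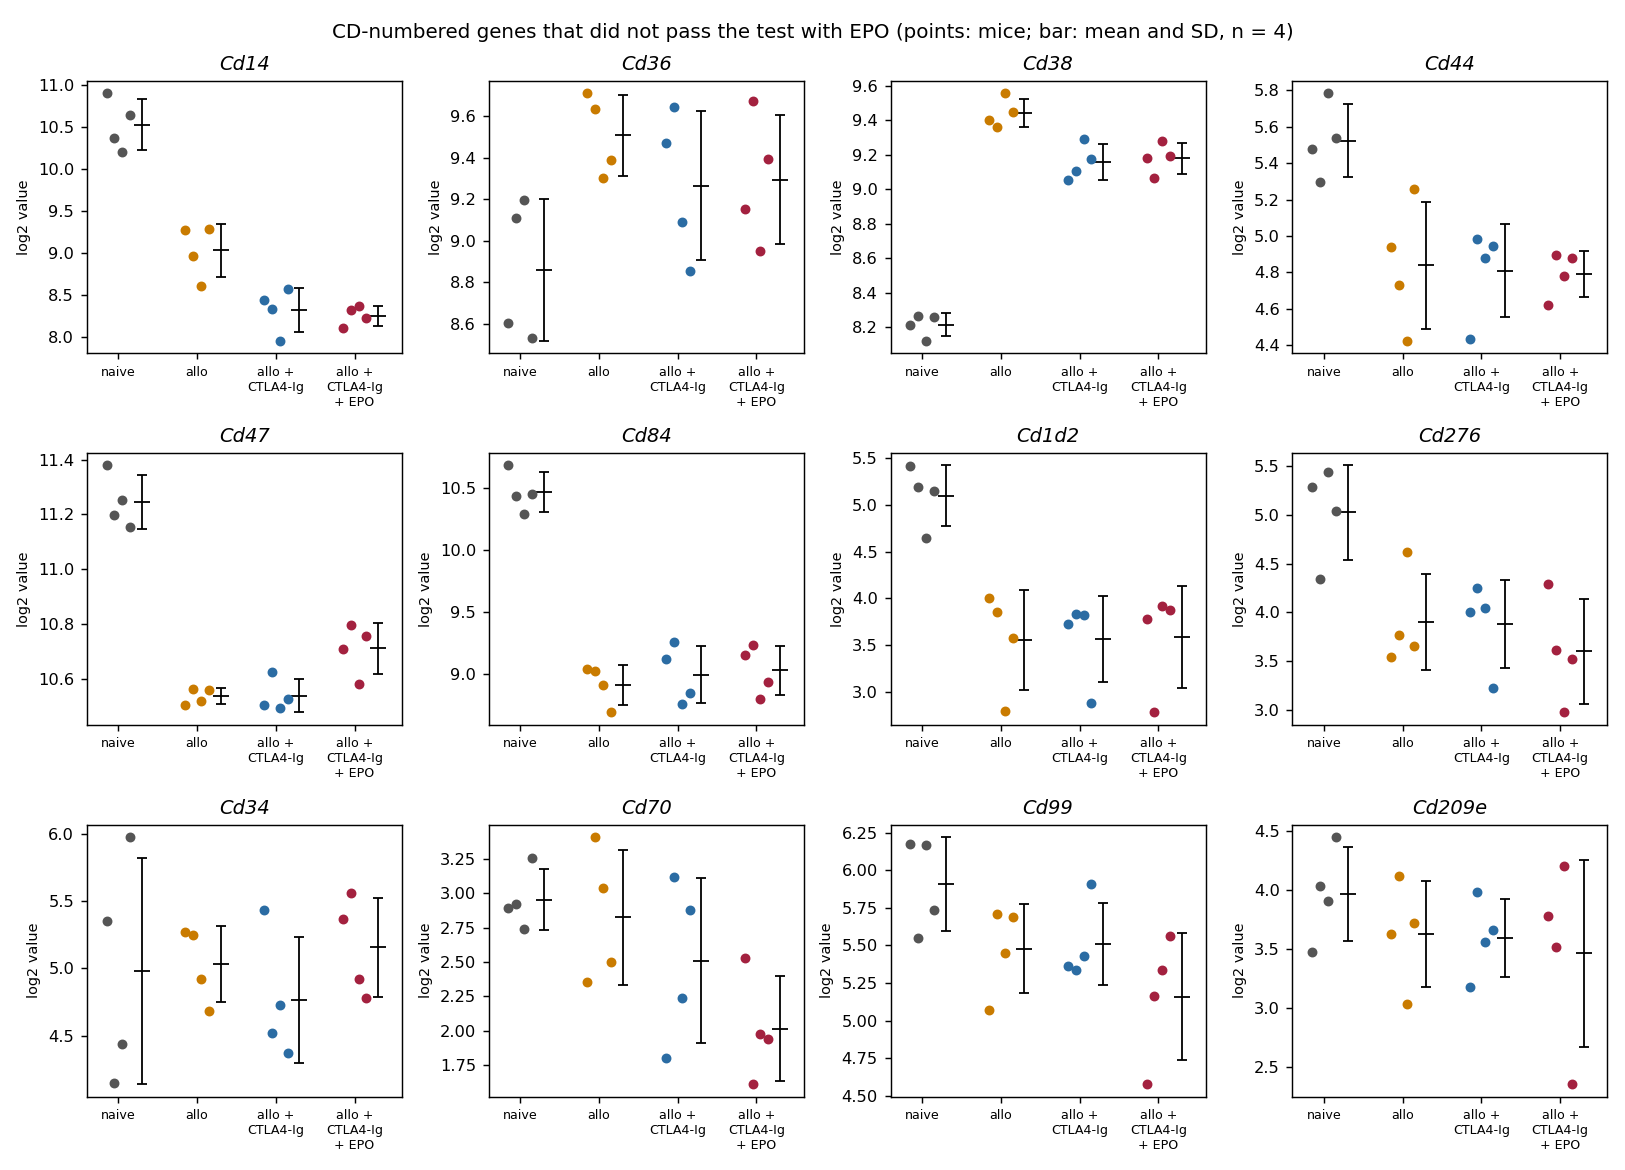
Deposited log2 values of the 12 CD-numbered genes that did not pass the test with EPO, by group. Points are mice and the bars give mean and SD of 4 mice. Naive mice stand above the other groups for Cd14, Cd1d2, Cd44, Cd47 and Cd84 and below them for Cd38, and the CTLA4-Ig and CTLA4-Ig/EPO mice overlap in every panel.

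The antigens listed as markers of activation were *Cd38*, *Cd44*, *Cd69*, *Cd70*, *Cd83* and *Cd276*. Of these 6 genes, 3 were higher and 2 lower in allo than in naive mice, beside 11.9% and 58.4% of all genes, and after centring 3 were higher and 0 lower, beside 33% and 26.7%. With EPO 0 were higher, 2 were lower and 4 were not called on either scale, where on the deposited scale 22.8% of all genes were higher and 28.3% lower. *Cd38*, an enzyme that consumes NAD and is carried by B cells, activated lymphocytes and stimulated macrophages, was 8.21, 8.26, 8.12 and 8.26 in naive mice, 9.40, 9.36, 9.56 and 9.45 in allo mice, 9.05, 9.11, 9.29 and 9.18 in CTLA4-Ig mice, and 9.18, 9.07, 9.28 and 9.19 in CTLA4-Ig/EPO mice. Naive mice were the low group, allo mice the high group, and the remaining groups overlapped each other just below the allo mice. The log2 difference between allo and naive mice was 1.23 ± 0.08 (SE, adjusted *P* = 7.61e-09, limma), and 1.96 after centring.

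The tight spread of *Cd38* bounds its response to EPO, for which the log2 difference was 0.02, with a 95% interval of -0.16 to 0.20, and -0.18 after centring, with an interval of -0.41 to 0.05. CTLA4-Ig mice were all below the allo mice, with a log2 difference of -0.28 ± 0.08 (SE) and an unadjusted *P* value of 0.0039 (adjusted *P* value 0.25 in limma). *Cd14* and *Cd38* were the only members with an unadjusted *P* value below 0.05 for CTLA4-Ig, where 9.54% of all genes had one. Next in order came *Cd69*, at -0.14 ± 0.12 (SE), with an unadjusted *P* value of 0.25. The log2 value of *Cd69* minus that of *Cd38* within a mouse was 1.99 ± 0.15 in naive, 2.04 ± 0.20 in allo and 2.19 ± 0.13 in CTLA4-Ig mice and 0.84 ± 0.31 in CTLA4-Ig/EPO mice, where it was at most 1.18 against at least 1.82 elsewhere. The pair *Cd83* and *Cd38* gave 2.34 ± 0.09 with CTLA4-Ig and 0.84 ± 0.37 with EPO. *Cd69* and *Cd83* thus parted from *Cd38* in the CTLA4-Ig/EPO mice for any factor per mouse.

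*Cd44*, the hyaluronan receptor that is raised on antigen-experienced T cells and on many myeloid cells, had few counts here (24 to 61 per mouse) and mean log2 values of 5.52 ± 0.20, 4.84 ± 0.35, 4.81 ± 0.25 and 4.79 ± 0.13 in naive, allo, CTLA4-Ig and CTLA4-Ig/EPO mice. The difference of -0.68 between allo and naive mice was called (adjusted *P* = 0.0027, limma) and was near 0 and not called after centring (0.047), quantile normalization (0.11) and limma-voom (-0.029). *Cd276* (B7-H3), a relative of the CD28 ligands found on stimulated antigen-presenting cells, was 5.28, 4.34, 5.44 and 5.04 in naive mice, 3.54, 3.77, 4.62 and 3.65 in allo mice, 4.00, 4.25, 4.05 and 3.23 in CTLA4-Ig mice, and 4.29, 3.61, 2.97 and 3.53 in CTLA4-Ig/EPO mice. Naive and allo mice overlapped. Their log2 difference was -1.13 ± 0.33 (SE, adjusted *P* = 0.0068), but -0.40 after centring, where it was not called (adjusted *P* value 0.32), and its counts were 14 to 39 per mouse.

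*Cd84*, a self-binding receptor of the SLAM family on myeloid cells, platelets and lymphocytes, was with *Cd1d2* the called gene furthest below naive mice in the allo mice on the deposited scale. Naive mice had 10.68, 10.44, 10.29 and 10.45, allo mice 9.04, 9.02, 8.91 and 8.69, CTLA4-Ig mice 9.12, 9.25, 8.76 and 8.85, and CTLA4-Ig/EPO mice 9.16, 9.23, 8.80 and 8.94. Naive mice stood alone at the top and the remaining groups overlapped. The log2 difference between allo and naive mice was -1.55 ± 0.14 (SE, adjusted *P* = 1.37e-07, limma), and -0.82 after centring. EPO left a log2 difference of 0.04, with a 95% interval of -0.26 to 0.33.

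*Cd1d2* belongs with *Cd1d1* to the lipid-presenting CD1 family, and RefSeq lists it in GRCm38.p6 as a transcribed pseudogene. It was 5.41, 5.20, 4.64 and 5.15 in naive mice, 4.00, 3.85, 2.80 and 3.58 in allo mice, 3.73, 3.83, 3.82 and 2.88 in CTLA4-Ig mice, and 3.78, 2.78, 3.92 and 3.88 in CTLA4-Ig/EPO mice. Naive mice were above every other mouse, and the other groups overlapped. The log2 difference of -1.55 ± 0.31 (SE) between allo and naive mice had an adjusted *P* value of 5.22e-04 in limma. It was -0.81 after centring and was not called after quantile normalization, at -0.62 with an adjusted *P* value of 0.14. Its counts were 9 to 29 per mouse, and the sequence of its probe, which could also bind the similar *Cd1d1* mRNA, was not used here, so the value is uncertain.

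*Cd47*, the ligand of SIRPα that keeps macrophages from engulfing a cell and that nearly all cells carry, had 1437 to 2738 counts per mouse. Its mean log2 values were 11.25 ± 0.10 in naive, 10.54 ± 0.03 in allo, 10.54 ± 0.06 in CTLA4-Ig and 10.71 ± 0.09 in CTLA4-Ig/EPO mice. The difference of -0.71 between allo and naive mice (adjusted *P* value 1.46e-06 in limma) became 0.023 after centring, with an interval of -0.14 to 0.18, 0.13 after quantile normalization and -0.051 in limma-voom, with none of the 3 called. With EPO the log2 difference was 0.17, with a 95% interval of 0.01 to 0.34 and an adjusted *P* value of 0.077, and -0.03 after centring. Leaving out CTLA4-Ig/EPO mouse 3 brought it past the threshold, at 0.22 (adjusted *P* = 0.041). Limma-voom on the recovered counts called it at 0.22, and limma with array weights at 0.19.

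*Cd34*, a sialomucin of hematopoietic progenitors and endothelium, *Cd99*, an adhesion molecule that leukocytes use to cross endothelium, and *Cd209e* (SIGNR4), a C-type lectin related to DC-SIGN, were called at none of the 3 steps on the deposited scale. *Cd34* ranged from 4.15 to 5.98 among naive mice alone, and its mean log2 values were between 4.76 and 5.16 in the 4 groups. Its log2 difference between allo and naive mice was 0.05 on the deposited scale, 0.79 after centring (adjusted *P* = 0.075, limma) and 0.93 after quantile normalization, where it was called (adjusted *P* = 0.043). For *Cd99* the means went from 5.91 ± 0.31 in naive to 5.16 ± 0.42 in CTLA4-Ig/EPO mice, and the log2 difference with EPO was -0.35, with a 95% interval of -0.83 to 0.13. After quantile normalization that difference was -0.67 and was called (adjusted *P* = 0.025). *Cd209e* had 6 to 33 counts per mouse, and its log2 difference with EPO was -0.13, with an interval of -0.87 to 0.61, which leaves room for a change in either direction. *Cd70* and *Cd99* passed the F-test over the 4 groups, with adjusted *P* values of 0.036 and 0.043 in limma. Both were called lower in CTLA4-Ig/EPO than in naive mice on the deposited scale, by log2 differences of -0.94 (adjusted *P* = 0.011) and -0.75 (adjusted *P* = 0.0082), in each of the 8 fits without 1 mouse. After centring these were -0.42 and -0.23 and were not called (adjusted *P* = 0.25 and 0.42).

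**Figure D4:**
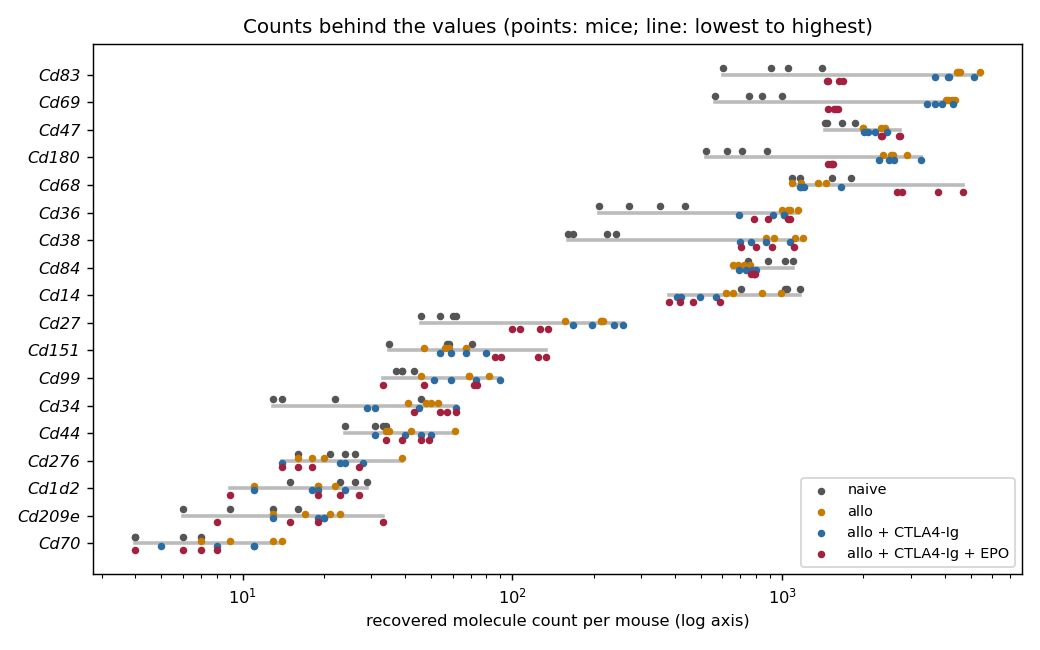
Recovered molecule counts of the 18 CD-numbered genes in each of the 16 mice, on a log axis. Points are mice and the gray line runs from the lowest to the highest mouse. The genes span from 4 counts for Cd70 to 5418 for Cd83, and Cd70, Cd209e, Cd1d2 and Cd276 have the fewest.

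Between CTLA4-Ig/EPO and naive mice, a comparison added after the data were seen, 10 of the 18 members were called on the deposited scale, with *Cd38* higher and 9 lower, beside 9.13% of all genes higher and 61.7% lower. After centring 6 were higher and 4 lower, beside 22.9% and 33.9%. *Cd38* was higher on both scales (0.96 and 1.48), and *Cd14* (-2.27 and -1.75), *Cd84* (-1.43 and -0.92), *Cd1d2* (-1.51 and -0.99) and *Cd276* (-1.43 and -0.91) were lower on both. After quantile normalization *Cd1d2* (-0.64, adjusted *P* = 0.12, limma) and *Cd276* (-0.53, adjusted *P* = 0.13) were not called, and in limma-voom *Cd276* was not (-0.69, adjusted *P* = 0.067). *Cd44*, *Cd47*, *Cd70*, *Cd83* and *Cd99* were called lower on the deposited scale and not after centring. *Cd36* was 0.43 higher (adjusted *P* = 0.076, limma) and was called with the replicate block (adjusted *P* = 0.048), without CTLA4-Ig/EPO mouse 3 or naive mouse 3 (0.55 in both), and after centring, at 0.95. *Cd36* was also called with robust trended moderation (0.43, adjusted *P* = 0.049, limma), after quantile normalization (1.24) and in limma-voom (1.14).

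Of the 6 genes that changed with EPO, those called different from naive mice were not the same on the 2 scales. The deposited scale gave log2 differences from naive mice of 0.12 for *Cd68*, -0.20 for *Cd151*, -0.18 for *Cd69*, -0.01 for *Cd180* and -0.11 for *Cd27*, each with a 95% interval that holds 0, and -0.48 for *Cd83*, with an interval of -0.82 to -0.13. Without CTLA4-Ig/EPO mouse 3 the *Cd83* difference was -0.36 (adjusted *P* = 0.063, limma), and without naive mouse 2 or 3 it was not called either. After centring, the differences were 0.64 for *Cd68*, 0.32 for *Cd151*, 0.34 for *Cd69*, 0.51 for *Cd180*, 0.41 for *Cd27* and 0.043 for *Cd83*, of which those of *Cd151* and *Cd83* had intervals that hold 0.

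Markers of several cell types differed between the groups as well, and in bulk RNA fewer cells of a type and less RNA per cell cannot be told apart. The marker lists are given as their share of the recovered counts, which does not depend on the factor. A share does depend on the other genes. Neutrophil markers took 27.7% to 49.6% of the counts in naive mice and 2.33% to 6.72% in allo mice. This lowers the shares of the other lists in naive mice, so shares of naive and other mice are not compared without this limit. The CD11b-selected cells were checked with 4 of 6 listed genes, *Itgam* (CD11b itself), *Itgb2*, *Csf1r* and *Tyrobp*, which took 1.74% to 2.31% of the counts in naive, 1.28% to 1.47% in allo, 1.51% to 1.71% in CTLA4-Ig and 2.30% to 2.54% in CTLA4-Ig/EPO mice. *Itgam* was present in every mouse, and its mean log2 value was 11.42 in naive and 8.85 to 9.56 in the other groups. All 4 genes were lower in allo than in naive mice on the deposited scale and 3 after centring, and *Csf1r* and *Tyrobp* were higher with EPO, of which *Tyrobp* was not called after centring (0.15, adjusted *P* = 0.19, limma).

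B cell markers (*Ms4a1*, *Fcer2a*, *Btk* and *Cxcr5*, 4 of 12 listed) took 0.113% to 0.192% of the counts in naive, 0.668% to 0.773% in allo, 0.669% to 0.727% in CTLA4-Ig and 0.422% to 0.562% in CTLA4-Ig/EPO mice. At both steps they moved in the direction of *Cd180*, with 3 of 4 higher in allo than in naive mice and 3 of 4 lower with EPO. After centring these were 4 of 4 in both. Against naive mice, 3 were higher and 1 lower in CTLA4-Ig/EPO mice, and 4 higher and 0 lower after centring. *Ms4a1* (CD20), which defines B cells, fell by 0.76 on the log2 scale with EPO, beside the 0.83 by which *Cd180* fell. Between allo and naive mice *Ms4a1* rose by 1.48, beside 0.79 for *Cd180*. In CTLA4-Ig/EPO mice *Ms4a1* was 0.64 above naive mice (adjusted *P* = 4.60e-04, limma), and 1.15 above after centring. The same differences of *Cd180* were -0.01, which was not called, and 0.51. *Btk*, which myeloid cells also express, was called with EPO only after centring, at -0.26. T cell markers (7 of 14 listed, among them the *Cd28*, *Cd247* and *Cd40lg* that the rule leaves out) went from 0.0344% in naive mouse 1 and 0.0594% to 0.0814% in the other naive mice to 0.261% to 0.333% in allo and 0.252% to 0.287% in CTLA4-Ig mice, and were at 0.0882% to 0.129% with EPO. All 7 were higher in allo than in naive mice and 6 of 7 were lower with EPO, as *Cd27* was. NK cell markers (3 of 10 listed) took 0.522% to 1.10% in naive, 0.809% to 1.45% in allo, 1.54% to 2.24% in CTLA4-Ig and 1.05% to 1.39% in CTLA4-Ig/EPO mice, and all 3 were lower with EPO. Between allo and naive mice 2 of the 3 were lower on the deposited scale (*Gzma* and *Nkg7*, at -0.58 and -0.49), opposite to *Cd27*, and 1 was higher and 0 lower after centring. Dendritic cell markers (7 of 11 listed) took 0.0898% in naive mouse 1 and 0.202% to 0.272% in the other naive mice, 0.543% to 0.653% in allo, 0.565% to 0.667% in CTLA4-Ig and 0.318% to 0.394% in CTLA4-Ig/EPO mice, with 3 of 7 lower and 1 higher with EPO, and 3 and 0 after centring. With EPO *Itgax*, *Flt3* and *Irf4* were lower and *Xcr1* was higher on the deposited scale, and *Clec9a*, *Batf3* and *Irf8* were not called. *Irf8*, 1 of the 7, had 1 recovered count in naive mouse 1 and 560 to 632 in the other naive mice. Without it the share was 0.0897% in naive mouse 1, 0.127% to 0.172% in the other naive mice, 0.366% to 0.462% in allo and CTLA4-Ig mice and 0.198% to 0.229% in CTLA4-Ig/EPO mice. T cells are not among the cells that a positive selection for CD11b is meant to keep, and cells that are CD11c-, as the text of the study calls them, would not include most dendritic cells. Recovered counts cannot fall below 1, so they do not show whether a marker was absent. The lowest count, 1, was that of a T cell and of a dendritic cell marker in naive mice. The part of these lists in the falls of *Cd180*, *Cd27*, *Cd69* and *Cd83* was not tested.

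Red pulp macrophage markers (9 of 13 listed, with *Vcam1*, *Mertk* and *C1qa* among them) rose with EPO, as *Cd68* did, and did not follow it between naive and allo mice. *Spic*, *Hmox1*, *Axl* and *Slc40a1* of this list were not measured, so the 9 genes were not read as specific to red pulp cells. These 9 took 0.614% to 0.990% of the counts in naive, 1.66% to 2.01% in allo, 1.53% to 1.67% in CTLA4-Ig and 4.62% to 7.59% in CTLA4-Ig/EPO mice. All 9 were higher with EPO, with a median log2 difference of 1.91. Between allo and naive mice 2 were higher and 2 lower on the deposited scale and 6 higher and 0 lower after centring, where *Cd68* was lower on both. Eosinophil markers (5 of 7 listed) took 0.104% to 0.236%, 0.0554% to 0.0998%, 0.0538% to 0.0700% and 0.482% to 0.606% in the same order, with 3 higher and 1 lower with EPO. Neutrophil markers (8 of 11 listed) took 27.7% to 49.6% of the counts in naive mice, 2.33% to 6.72% in allo, 2.58% to 4.70% in CTLA4-Ig and 7.98% to 15.9% in CTLA4-Ig/EPO mice. All 8 were lower in allo than in naive mice, as were *Cd14*, *Cd84*, *Cd1d2* and *Cd68* on both scales, and 4 of 8 were higher with EPO, where *Cd14* and *Cd84* were not called. Monocyte markers (4 of 7 listed) took 0.727% to 1.09% in naive, 0.596% to 0.690% in allo, 0.685% to 0.738% in CTLA4-Ig and 0.722% to 0.831% in CTLA4-Ig/EPO mice, with 2 higher and 1 lower with EPO, and 1 and 1 after centring. Of 8 erythroid genes listed, *Gata1* was measured, at 69 or more counts in every CTLA4-Ig/EPO mouse, and it rose with EPO by 2.23 on the log2 scale. Its mean log2 value was 6.17 in naive, 3.64 in allo, 3.65 in CTLA4-Ig and 5.88 in CTLA4-Ig/EPO mice. The log2 difference of CTLA4-Ig/EPO from naive mice was -0.29, and 0.23 after centring, called on neither scale. As the only erythroid gene measured, *Gata1* does not show whether erythroid cells were present. The eosinophil markers *Prg2*, *Epx* and *Ccr3* were likewise lower in allo mice and higher with EPO. *Siglecf* was not called with EPO, and *Il5ra* went the other way at both steps. The part of these lists in the rises of *Cd68* and *Cd151* was not tested either.

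**Figure D5:**
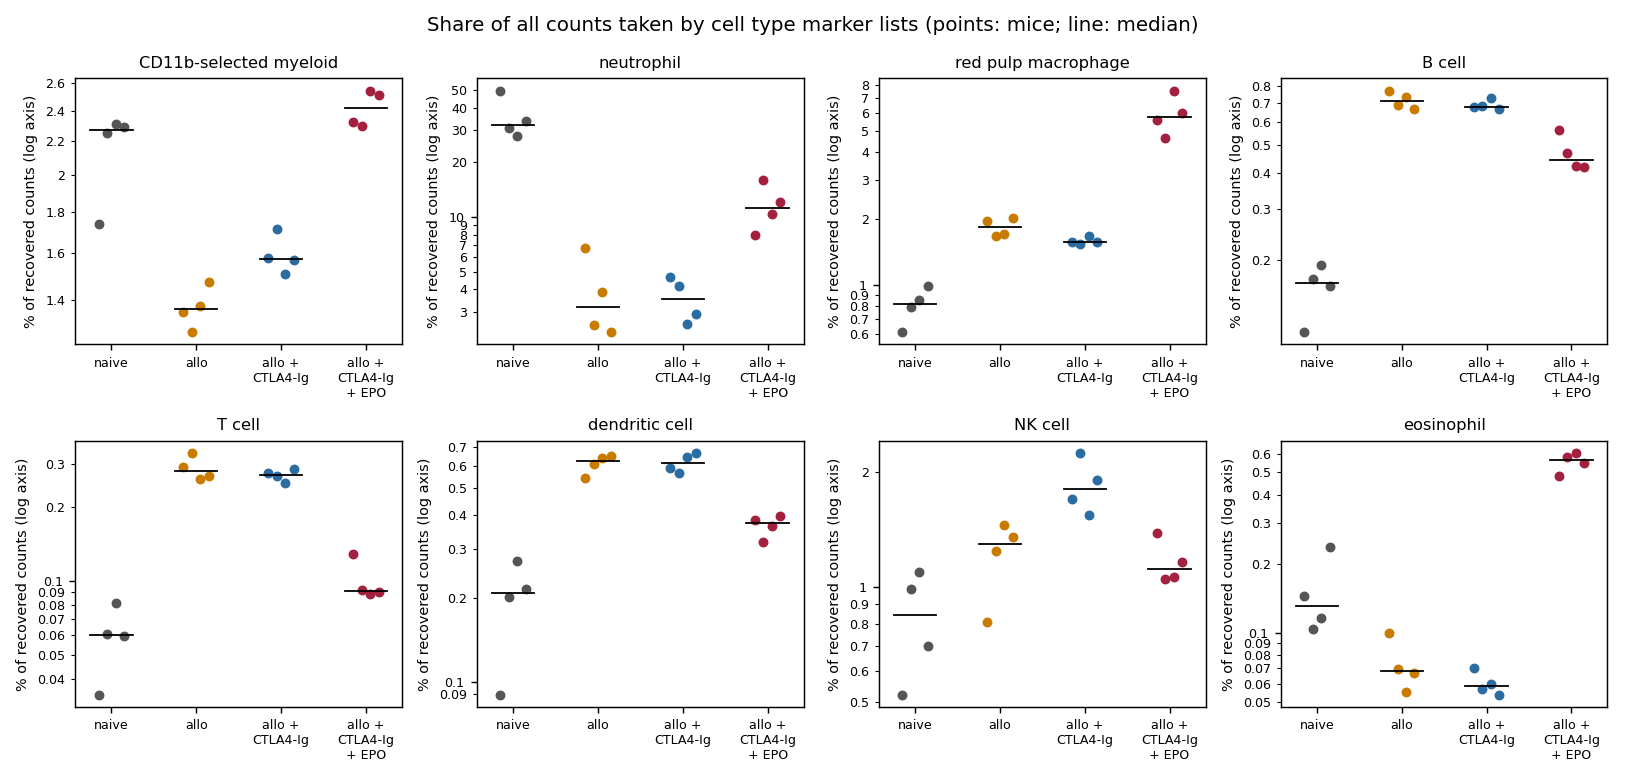
Share of all recovered counts taken by 8 cell type marker lists in each mouse, in percent on a log axis. Points are mice and lines are group medians. The shares of the B cell, T cell and dendritic cell lists are lower in the CTLA4-Ig/EPO mice than in the CTLA4-Ig mice. Those of the red pulp macrophage, neutrophil, eosinophil and CD11b-selected myeloid lists are higher.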

How the data were processed

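Splenic CD11b+ cells of 16 mice, 4 per group, were profiled with the nCounter panel. Per the methods, raw counts were imported into limma and normalized by the authors, who deposited them on a log2 scale, 734 genes by mouse. Undoing the log2 of the deposited values left whole counts multiplied by 1 factor in each mouse (100% of values within 0.001). What the factor was computed from, and any background subtraction, are not given in the sources used here. The lowest recovered count, 1 (0.843% of values), may stand for 0. Totals were 562760 to 912328 counts, and arrays were not pooled. All columns were used.

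One limma model (version 3.58.1, R 4.3.3) of 4 group means was fitted to all genes without a filter, with two-sided tests and Benjamini-Hochberg adjustment at 0.05, and was tested on simulated data. Samples are numbered within groups and were taken as separate mice, and no pair of a group agreed within sampling noise. The members, role lists and 10 marker lists, written from general knowledge, were chosen with earlier results of these data known. All members are described, with values per mouse for the 5 largest called rises and falls between allo and naive mice and with EPO, and for the 3 smallest unadjusted *P* values with CTLA4-Ig. Symbols of 18 of 18 members matched RefSeq (GRCm38.p6), from which the promoter sequences come. Protein sequences were not analysed here.

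Titles number the mice of each group. Between CTLA4-Ig and CTLA4-Ig/EPO mice, deviations from the group mean correlated over genes at 0.143 to 0.183 for equal numbers. Unequal numbers gave -0.287 to 0.192. The labels do not say that numbers are shared between groups, so no pairing was taken as shown. Equal numbers gave -0.058 to 0.165 for allo and naive mice and 0.016 to 0.293 for CTLA4-Ig and allo mice. The fit was repeated with each mouse left out, with the replicate block, on subsets of groups, with array weights, with robust trended moderation, after median centring or quantile normalization, without the lowest 25% of genes, as limma-voom on recovered counts, and with unadjusted *P* values or at least 1.5-fold change. The comparison of CTLA4-Ig/EPO with naive mice was added after the data were seen. Figures used Python 3.11.15 and matplotlib 3.10.9.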

Additional observations from a re-analysis of the deposited data

Results flagged for a closer look

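In each of 72 groups (18 genes in 4 groups of 4 mice), the highest and the lowest mouse were compared with the nearest other mouse, and 4 stood apart by Dixon's criterion, where chance marks about 1 group in 20. *Cd1d2* was at 2.88 (log2) in CTLA4-Ig mouse 4, with the next mouse at 3.73, and at 2.78 in CTLA4-Ig/EPO mouse 2, with the next at 3.78. These are 11 and 9 recovered counts. *Cd27* was at 6.87 in CTLA4-Ig mouse 1, with the next mouse at 7.24, and that mouse was still above every CTLA4-Ig/EPO mouse. *Cd99* was at 5.91 in CTLA4-Ig mouse 4, with the next mouse at 5.43. No cause was tested.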

How the results depend on the processing

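Between allo and naive mice 14 members were called, 14 in each fit without 1 mouse, and 12 after the filter on the lowest 25% of genes. That filter removed *Cd1d2*, *Cd209e*, *Cd276* and *Cd70* before testing, so *Cd1d2* and *Cd276* were not tested there. After centring on medians, quantile normalization or limma-voom 10 were called. Under these 3 settings, *Cd44* (0.047, 0.11 and -0.029) and *Cd47* (0.023, 0.13 and -0.051) were near 0 and not called. Apart from the deposited and centred scales, shares of all genes are not given here, so the counts under other settings are not read as a result about the members. With EPO 6 were called, 6 to 7 without 1 mouse. With CTLA4-Ig 0 were called in limma, also without any 1 mouse, and 2 at an unadjusted *P* value below 0.05. The F-test called 15, beside 85.3% of all genes, and 13 to 16 without 1 mouse. It called 8 in only the 3 groups given BALB/c cells, which leaves out the naive mice, and 9 with quantile normalization. The share of all genes is not given for these other fits. With the replicate block the counts were 14, 0, 6 and 15. The block brought *Cd36* past the threshold between CTLA4-Ig/EPO and naive mice (adjusted *P* 0.048, against 0.076) and changed no other member's call in the 4 comparisons.

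Between CTLA4-Ig/EPO and naive mice 1 member was called higher and 9 lower, 9 to 10 in all without 1 mouse, against 6 and 4 with centring, 6 and 2 with quantile normalization and 9 and 3 with limma-voom. Shares of all genes under quantile normalization and limma-voom are not given here, so these counts are not read as a result about the members. Of the differences called on either side, those of 6 members turned sign under at least 1 of centring, quantile normalization and limma-voom. Centring gave 0.51 for *Cd180*, 0.41 for *Cd27*, 0.34 for *Cd69* and 0.043 for *Cd83*. Quantile normalization gave 0.83 for *Cd180*, 0.62 for *Cd69*, 0.34 for *Cd83* and 0.25 for *Cd47*, and limma-voom 0.70 for *Cd180*, 0.60 for *Cd27*, 0.53 for *Cd69*, 0.24 for *Cd83*, 0.18 for *Cd47* and 0.53 for *Cd151*. The cause of these changes was not tested. Counts were lowest for *Cd70*, *Cd209e*, *Cd1d2* and *Cd276*, at 4 to 39, and on the deposited scale their intervals hold changes of either sign with EPO.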
